A study of Mus musculus with 40 samples.

Results

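The levels of 8 serotonin receptor genes, Htr1a, Htr1b, Htr1f, Htr2a, Htr2c, Htr3a, Htr4 and Htr7, were described in 40 mouse forebrain RNA-seq libraries. They were chosen by symbol from the 41388 genes counted in each library, which hold 14 genes for serotonin receptors in all, and each symbol matched 1 Ensembl gene. All mice were 21 d old and carried a Cre-dependent reporter for the ribosomal protein Rpl10a fused to GFP. In the RBP4-TRAP line, Tg(RBP4-cre) directs the reporter to pyramidal neurons of layer 5, and in the VGAT-TRAP line the Cre in Slc32a1, the gene for the vesicular GABA transporter (VGAT), directs it to GABAergic neurons. Each replicate was a pool of forebrains of both sexes, labelled as cortex, and gave 4 fractions. WCH is the total RNA of the homogenate, TRAP the RNA captured with the tagged ribosomes of the homogenate, SNF the RNA of the synaptoneurosome fraction, which is enriched in pinched-off synaptic endings, and ST (SynapTRAP) the RNA captured with tagged ribosomes from that fraction. With 5 replicates of each, the 2 lines and 4 fractions make 8 groups. The labels name cortex as the tissue, while the methods describe a forebrain dissection, so striatal GABAergic neurons can be among the tagged cells of the VGAT-TRAP line. The study asked which mRNAs are bound by ribosomes near synapses and how this differs between both neuron types.

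Serotonin reaches the forebrain through axons of the raphe nuclei, whose cell bodies lie in the brainstem, so the receptors are made by the forebrain cells that receive it. Most receptors couple to G proteins. Htr1a, Htr1b and Htr1f encode receptors that act through Gi/o and lower cAMP, Htr2a and Htr2c receptors that act through Gq and phospholipase C, and Htr4 and Htr7 receptors that act through Gs and raise cAMP. Htr3a differs in kind, since it encodes the subunit that a ligand-gated cation channel requires. In the cortex this channel is known from interneurons outside the parvalbumin and somatostatin classes, while Htr1a and Htr2a are known from pyramidal neurons, Htr1b from axon terminals and Htr2c also from the epithelium of the choroid plexus.

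Levels are given in cpm, the deposited counts scaled to 1000000 counts a library. Mitochondrial genes and those for rRNA and tRNA were left out of that total. The libraries held 14259535 to 22037703 counts, and 1 count equalled 0.0455 to 0.112 cpm. As a check of the labels, 5 markers of GABAergic neurons (Slc32a1, Gad1, Gad2, Dlx1 and Dlx2) summed to 3027 to 5203 cpm in VGAT TRAP and to 113, 92.5, 97.6, 139 and 437 cpm in RBP4 TRAP replicates 1 to 5. In ST they summed to 258 to 706 cpm in VGAT and 205 to 329.9 cpm in RBP4. Fezf2, Bcl11b, Etv1 and the general glutamatergic gene Slc17a7, taken as markers of layer 5 neurons, summed to 665 to 1034 cpm in RBP4 TRAP and 183 to 337 cpm in VGAT TRAP, and to 653 to 1202 and 542 to 849.5 cpm in ST. The 6 markers of striatal projection neurons reached 2436 to 3815 cpm in VGAT TRAP, against 65.3 to 199 cpm in RBP4 TRAP. RBP4 TRAP replicate 5 stood above the other libraries of its group in the GABAergic markers, in 6 astrocyte markers (1649.7 cpm) and in 5 oligodendrocyte markers (4702 cpm). In RBP4 ST replicate 4, Slc32a1 was 49.9 cpm, against 10.9 to 19.7 cpm in the 4 RBP4 ST libraries beside it, although the sum of the 5 GABAergic markers, 329.9 cpm, was near theirs. SNF replicate 3 of both lines stood apart as well, with 40.2% and 41.9% of counts on mitochondrial genes, against 11.2 to 19.4% in the other SNF libraries, and the highest astrocyte sums (24784 and 24494 cpm). Calls that are lost or gained without 1 of these 4 libraries are given with both values. VGAT TRAP replicate 3 also had the highest astrocyte (1037 cpm), oligodendrocyte (2162 cpm) and layer 5 (337 cpm) sums of its group. Its GABAergic sum, 3027 cpm, was the lowest there. This library was left out only together with its pool, never alone. Adjusted p values are Benjamini-Hochberg values over all genes tested, from edgeR's quasi-likelihood test, and means are given ± SD with n = 5 libraries throughout. In bulk libraries, fewer cells of a type and less RNA per cell cannot be told apart.

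All 8 genes were expressed above the limit for testing in every comparison. To compare levels between genes, cpm were divided by the exon length of the gene in kb. On this scale the 8 genes summed to 21.7 ± 2.32 in RBP4 WCH and 20.3 ± 0.281 in VGAT WCH. In both homogenates the sum was spread over many genes. No gene held more than 17.0% of it in RBP4 WCH (Htr2c) or 17.5% in VGAT WCH (Htr1a), and Htr4 had the lowest share in each of the 8 groups. In RBP4 TRAP the sum was 14.7 ± 2.09, led by Htr1f (19.9% ± 5.11) and Htr1a (19.1% ± 3.45). VGAT TRAP had 30.7 ± 2.58, of which Htr3a alone made 50.5% ± 4.20, and Htr1b was next with 13.8% ± 1.95. In SNF of both lines Htr2c led, with 24.3% in RBP4 and 21.5% in VGAT. In ST of both lines Htr3a led, with 20.9% ± 5.26 in RBP4 and 30.0% ± 10.1 in VGAT, followed by Htr7 with 19.7% ± 5.68 and 17.0% ± 4.52. These shares describe the 8 genes and were not tested. The order depends on the division by length. The methods describe priming at the 3′ end and reads biased towards it, in which case reads do not grow with length and the division lowers long genes such as Htr2c. Without it, Htr2c had the highest mean of the 8 genes in 7 of the 8 groups, with 19.7 cpm in RBP4 TRAP, 29.8 cpm in RBP4 ST and 27.7 cpm in VGAT ST, where Htr3a had 7.66 cpm in RBP4 ST and 12.7 cpm in VGAT ST. Htr3a had the highest mean in VGAT TRAP on either scale. Without the division its lead was small, at 32.3 ± 4.67 cpm against 30.0 ± 4.17 cpm for Htr2c, and Htr2c was the higher in some of the libraries.

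**Figure D1:**
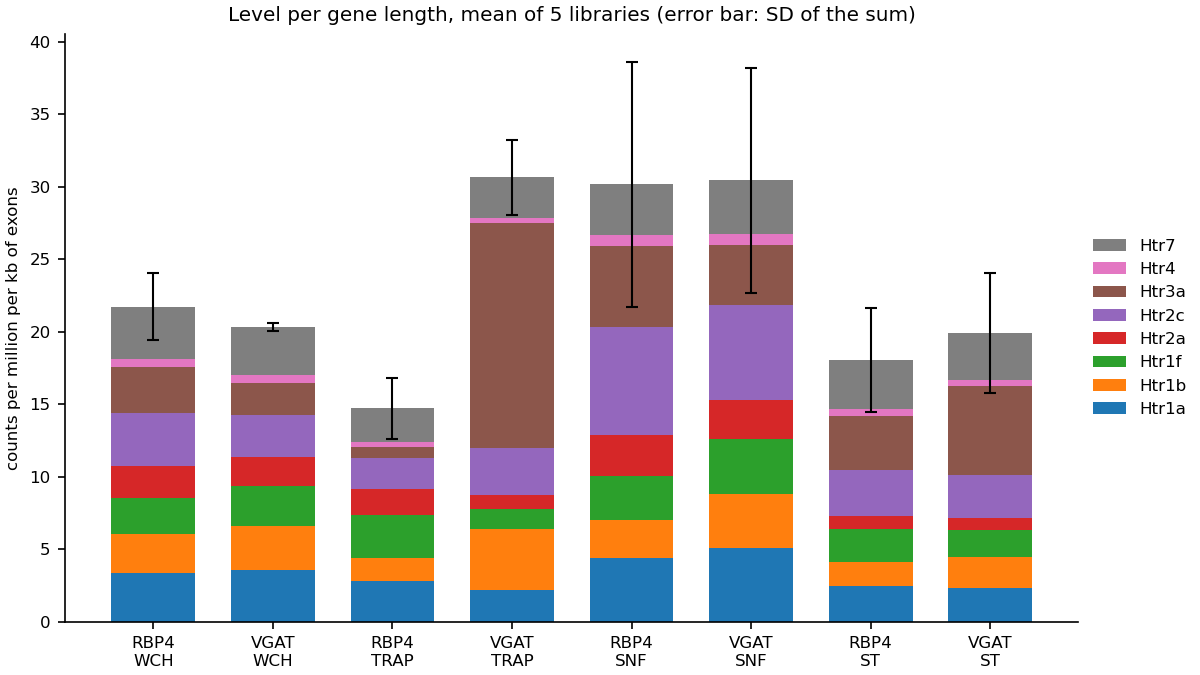
Stacked bars give the mean level of each gene in cpm per kb of exons for the 8 groups, and the error bar is the SD of the sum over 5 libraries. On this scale Htr3a takes 15.5 of the 30.7 in the bar of VGAT TRAP and 0.756 of the 14.7 in that of RBP4 TRAP.

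Htr3a (chromosome 9, 48899213 to 48911099, minus strand, GRCm38) had the widest range of the 8 genes when taken as the ratio of its highest to its lowest group mean. In VGAT TRAP it was 33.4, 35.5, 30.8, 36.9 and 25.1 cpm in replicates 1 to 5, and in RBP4 TRAP 1.67, 0.792, 0.830, 0.546 and 4.03 cpm. Every VGAT TRAP library was above every RBP4 TRAP library, and the highest RBP4 value came from replicate 5, the library with raised markers of other cells. In the homogenates it was 7.48, 5.35, 5.47, 7.01 and 7.28 cpm in RBP4 WCH and 4.93, 4.39, 4.71, 5.56 and 3.64 cpm in VGAT WCH, a difference of 0.49 with a 95% confidence interval of -0.19 to 1.17 on the log2 scale, RBP4 over VGAT. Against its own homogenate, Htr3a rose in VGAT TRAP by 2.80 ± 0.26 (SE, edgeR adjusted p = 1.81e-08) on the log2 scale, or 6.95-fold. In RBP4 TRAP the change was -2.06 ± 0.37 (SE, edgeR adjusted p = 0.000174), or 4.17-fold lower. Without RBP4 TRAP replicate 5 alone it was -2.78 (edgeR adjusted p = 1.34e-07). The lines differed in this change by -4.86 ± 0.50 (SE, edgeR adjusted p = 1.90e-08), RBP4 less VGAT, and by -5.58 without that library.

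From the homogenate to SNF, Htr3a rose in both lines. RBP4 SNF had 11.6, 13.1, 9.09, 13.8 and 10.8 cpm and VGAT SNF 10.02, 10.8, 5.47, 8.01 and 8.59 cpm, changes of 0.84 ± 0.35 (SE, edgeR adjusted p = 0.0466) and 0.89 ± 0.26 (SE, edgeR adjusted p = 0.00429). The RBP4 call rests on an adjusted p near the threshold, passed in 1 of 5 fits that each left out 1 pool, and reached 0.0539 with no filter on low counts. RBP4 ST had 8.11, 7.53, 6.65, 10.1 and 5.89 cpm and VGAT ST 7.42, 7.25, 10.5, 19.2 and 19.3 cpm, so that replicates 1 and 2 of VGAT ST lay within the RBP4 range and replicates 3, 4 and 5 above it. Markers of somatostatin or parvalbumin interneurons, given below, split these VGAT ST replicates in the same way. The difference between the lines in ST, -0.73 with an interval of -1.39 to -0.06, did not pass (edgeR adjusted p = 0.384). Relative to TRAP, ST was higher in RBP4, by 2.29 ± 0.37 (SE, edgeR adjusted p = 2.12e-05), and lower in VGAT, with a log2 fold change of -1.35 ± 0.24 (SE, edgeR adjusted p = 3.85e-05). ST and TRAP libraries did not overlap in either line, and the 2 changes differed by 3.65 ± 0.48 (SE, edgeR adjusted p = 3.35e-06). Without RBP4 TRAP replicate 5 alone the RBP4 change was 3.01 and the difference 4.36.

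Markers of other cells moved with some of these values and against others. From WCH to SNF, where Htr3a rose, the 5 GABAergic markers fell. They summed to 679 to 901 cpm in RBP4 WCH and 251 to 509 cpm in RBP4 SNF. In VGAT these sums were 785 to 1193 cpm in WCH and 249 to 657 cpm in SNF. The 5 GABAergic markers summed to 401, 408, 258, 706 and 595 cpm in VGAT ST replicates 1 to 5, highest in the same replicates 4 and 5 as Htr3a. They were lowest in replicate 3, although Htr3a was higher there than in replicates 1 and 2. In RBP4 ST they summed to 322, 282, 205, 329.9 and 306 cpm, above RBP4 TRAP replicates 1 to 4. Vip, a peptide of interneurons that often express Htr3a and 1 of 5 markers listed for that class (with Cck, Calb2, Ndnf and Sncg), was 83.8, 122, 168, 392 and 352 cpm in VGAT ST, 45.3 to 80.8 cpm in RBP4 ST and 4.26 to 16.9 cpm in RBP4 TRAP. The 3 markers of somatostatin or parvalbumin interneurons summed to 415, 470, 1345, 1609 and 2290 cpm in VGAT ST replicates 1 to 5. They were 800, 892, 624, 702 and 700 cpm in VGAT SNF, so VGAT ST replicates 1 and 2 lay below their own SNF. RBP4 ST had 199 to 586 cpm, VGAT TRAP 4345 to 5517 cpm and RBP4 TRAP 150 to 320 cpm of them. In the VGAT line the movement was thus not particular to markers of the Htr3a class. In RBP4 the sums of these 3 markers overlapped between TRAP and ST, where Htr3a did not. RBP4 ST replicate 4, highest in Htr3a, had the lowest of these sums in its group (199 cpm). The sum of the 5 markers of the Htr3a class did not follow Htr3a as closely as Vip did. It was 349 to 704 cpm in RBP4 TRAP, 295 to 511 cpm in RBP4 WCH, 348 to 806 cpm in RBP4 ST, 815 to 1022 cpm in VGAT TRAP and 509 to 864 cpm in VGAT ST. Between the TRAP groups 4 of the 5 were lower in RBP4 and 1 was higher, and in RBP4 TRAP against WCH 3 were lower and 1 was higher. The higher one was in both cases Cck, which pyramidal neurons express too, with log2 fold changes of 1.47 (edgeR adjusted p = 0.000101) between the lines and 1.08 (edgeR adjusted p = 0.00952) against WCH. Astrocyte markers summed to 369 to 1649.7 cpm in RBP4 TRAP and 3738 to 20465 cpm in RBP4 ST, and oligodendrocyte markers to 341 to 4702 and 27359.6 to 37404 cpm. The VGAT line had 159.6 to 1037 and 4907 to 17924 cpm of the astrocyte markers and 374 to 2162 and 24513 to 42633 cpm of the oligodendrocyte markers. No marker of these lists was at 0 in all 5 libraries of a group, and their part in the ST results was not tested.

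**Figure D2:**
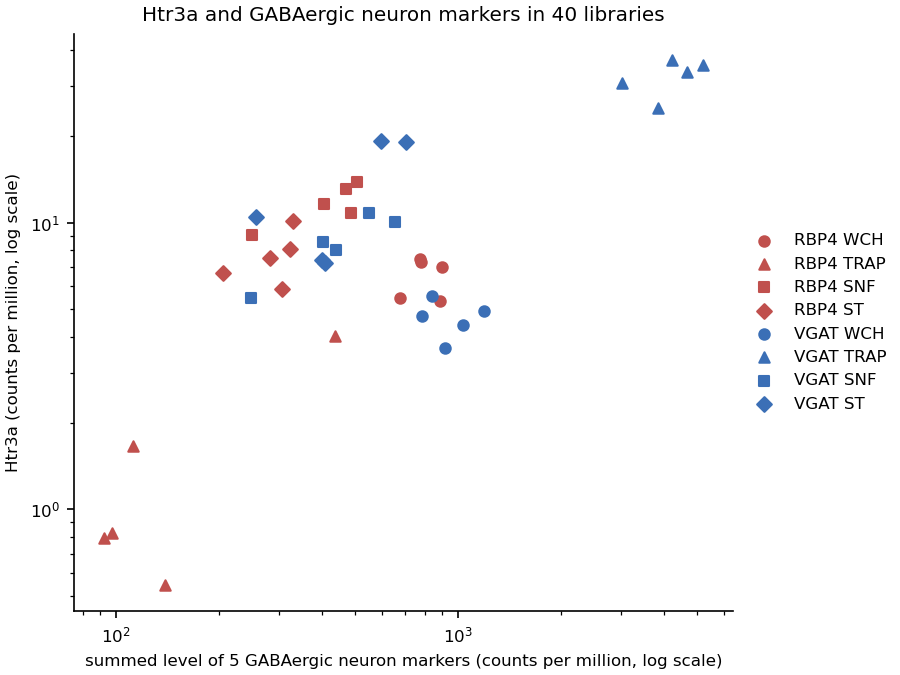
Each point is 1 of the 40 libraries, with the summed level of 5 GABAergic neuron markers on the x axis and Htr3a on the y axis, both in cpm on log scales. The 5 VGAT TRAP libraries lie at the upper right (25.1 to 36.9 cpm of Htr3a) and 4 RBP4 TRAP libraries at the lower left. RBP4 TRAP replicate 5 lies apart from these 4, at 437 cpm of the markers and 4.03 cpm of Htr3a.

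Among the Gi/o-coupled receptors, Htr1b (chromosome 9, 81628291 to 81633828, minus strand) separated the lines in TRAP as well. It was 22.1, 22.9, 16.7, 17.7 and 20.4 cpm in VGAT TRAP and 11.3, 8.12, 6.28, 8.42 and 3.92 cpm in RBP4 TRAP, with no overlap. RBP4 WCH had 14.3, 15.1, 9.12, 15.0 and 10.1 cpm and VGAT WCH 17.7, 15.5, 12.1, 13.0 and 14.4 cpm, which overlapped. Of the 8 groups, VGAT TRAP had the highest mean and RBP4 TRAP the lowest, and each neighbouring pair of groups in that order overlapped. Between the TRAP libraries the log2 fold change, RBP4 over VGAT, was -1.39 ± 0.22 (SE, edgeR adjusted p = 1.39e-05), or 2.62-fold higher in VGAT. Relative to the homogenate, Htr1b rose in VGAT TRAP by 0.46 ± 0.20 (SE, edgeR adjusted p = 0.0477) in 5 of 5 pools and fell in RBP4 TRAP by 0.74 (SE 0.28, edgeR adjusted p = 0.0413) in 5 of 5. Both calls were close to the threshold, passed in 1 of 5 (VGAT) and 2 of 5 (RBP4) fits without 1 pool and did not pass with no filter on low counts (edgeR adjusted p = 0.0601 and 0.0506), and without RBP4 TRAP replicate 5 alone the second was -0.58 (edgeR adjusted p = 0.0900). The difference between both changes was -1.20 ± 0.31 (SE, edgeR adjusted p = 0.00801) and was called in 10 of 10 fits that each left out 1 pool.

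Without VGAT SNF replicate 3, the rise of Htr1b from VGAT WCH to SNF passed (0.45, edgeR adjusted p = 0.0297), while with all libraries it was 0.29 (edgeR adjusted p = 0.199). In the synaptoneurosome fractions Htr1b was 24.2, 22.3, 9.61, 14.1 and 18.5 cpm in VGAT SNF and 9.53, 12.9, 7.28, 10.9 and 10.7 cpm in VGAT ST. VGAT ST was lower than SNF in 5 of 5 pools and did not overlap with VGAT TRAP. The log2 fold changes of VGAT ST were -0.80 against SNF (edgeR adjusted p = 0.00463, or 0.0530 without VGAT replicate 1) and -0.96 against TRAP (edgeR adjusted p = 0.000208). RBP4 SNF had 16.1, 12.8, 6.35, 16.6 and 9.54 cpm and RBP4 ST 6.73, 10.1, 5.04, 8.02 and 9.77 cpm, and the log2 fold change of ST against SNF, -0.63 with an interval of -1.22 to -0.04, did not pass (edgeR adjusted p = 0.159). The change from TRAP to ST differed between the lines by 1.02 ± 0.31 (SE, edgeR adjusted p = 0.0312). It was called in 2 of 10 fits that each left out 1 pool, with edgeR adjusted p of 0.0116 to 0.0922, and without RBP4 TRAP replicate 5 alone it was 0.86 (edgeR adjusted p = 0.0515). The exons of Htr1b share 729 bases with those of D430036J16Rik, an antisense gene. The library kit did not mark strand and only unambiguous reads were counted, so reads within the shared bases could be missing from the count of Htr1b.

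Htr1a (chromosome 13, 105443639 to 105448122, plus strand), the inhibitory receptor of many pyramidal neurons, had similar homogenate levels in both lines, 11.5 to 17.2 cpm in RBP4 WCH and 14.7 to 18.0 cpm in VGAT WCH. VGAT TRAP was 11.6, 9.39, 10.3, 7.98 and 8.85 cpm, below every VGAT WCH library. The log2 fold change of -0.71 passed (SE 0.17, edgeR adjusted p = 0.00116). In RBP4 TRAP Htr1a was 14.2, 10.9, 12.8, 14.7 and 9.30 cpm, and its log2 fold change against WCH was -0.28 (interval -0.74 to 0.18, edgeR adjusted p = 0.318). Directly compared, the TRAP libraries differed by 0.37 with an interval of -0.01 to 0.74 (edgeR adjusted p = 0.143), and the call in one line alone was thus no test of a difference between them. Both SNF groups had the highest means, with 27.2, 27.4, 13.9, 20.3 and 24.2 cpm in VGAT and 25.2, 21.0, 15.2, 22.5 and 13.5 cpm in RBP4, and the rise over WCH passed in VGAT, by 0.52 ± 0.17 (SE, edgeR adjusted p = 0.0103), in 3 of 5 fits without 1 pool as well. Htr1a then fell from SNF to ST in both lines. VGAT ST had 11.9, 10.2, 7.12, 11.6 and 10.7 cpm, below every VGAT SNF library, and RBP4 ST 8.74, 14.3, 7.11, 9.63 and 14.6 cpm, lower in 4 of 5 pools. The log2 fold changes were -1.13 ± 0.17 (SE, edgeR adjusted p = 3.10e-05) in VGAT and -0.84 ± 0.22 (SE, edgeR adjusted p = 0.0162) in RBP4, the latter called in 2 of 5 fits without 1 pool.

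Htr1f (chromosome 16, 64924729 to 65105854, minus strand) was the 1 gene of the 8 that was called higher in RBP4 TRAP than in VGAT TRAP. It had 10.5, 4.21, 7.32, 5.96 and 9.08 cpm there and 3.19, 3.45, 4.21, 3.17 and 3.74 cpm in VGAT TRAP, so that only RBP4 replicate 2, at 4.21 cpm, reached down to the highest VGAT value, that of replicate 3. The log2 fold change, RBP4 over VGAT, was 1.06 ± 0.32 (SE, edgeR adjusted p = 0.0130), or 2.08-fold. It passed in 9 of 10 fits that each left out 1 pool, and not without RBP4 replicate 1 (edgeR adjusted p = 0.0534). Against WCH, where the VGAT libraries held 5.67, 7.08, 6.28, 7.27 and 7.72 cpm, VGAT TRAP was lower in 5 of 5 pools without overlap, with a log2 fold change of -0.94 ± 0.19 (SE, edgeR adjusted p = 0.000214), while RBP4 TRAP changed by 0.26 with an interval of -0.53 to 1.04. The difference between these changes was 1.19 and did not pass (edgeR adjusted p = 0.0850). VGAT SNF had 8.56, 11.4, 6.59, 9.42 and 11.5 cpm, above VGAT WCH in 5 of 5 pools, a rise of 0.48 ± 0.18 (SE, edgeR adjusted p = 0.0252) that passed in 2 of 5 fits without 1 pool. VGAT ST had 3.66, 4.76, 3.22, 5.95 and 5.34 cpm, below every VGAT SNF library, a change of -1.05 ± 0.19 (SE, edgeR adjusted p = 0.000181). RBP4 WCH, SNF and ST held 3.87 to 7.90, 3.52 to 10.4 and 2.31 to 12.1 cpm, the widest range being that of ST, and no change of RBP4 SNF or ST passed.

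Of the Gq-coupled receptors, Htr2c (chromosome X, 146962513 to 147197277, plus strand), whose mRNA is edited by adenosine deaminases, had the most reads of the 8 genes in both homogenates, 32.3, 37.1, 29.6, 37.3 and 35.0 cpm in RBP4 WCH and 26.6, 29.3, 26.5, 30.3 and 22.2 cpm in VGAT WCH. It was highest in the synaptoneurosomes, with 89.9, 77.0, 37.7, 87.9 and 53.9 cpm in RBP4 SNF and 82.0, 71.5, 36.2, 61.8 and 55.0 cpm in VGAT SNF. All SNF libraries were above all WCH libraries of their line, and replicate 3, the library with the raised mitochondrial share, was the lowest of SNF in both. The rises were 1.02 ± 0.23 (SE, edgeR adjusted p = 0.00117) in RBP4 and 1.19 ± 0.20 (SE, edgeR adjusted p = 2.21e-05) in VGAT. Relative to the median of all genes tested, which shifted between these fractions, they were 1.52 and 1.70. In ST it was 32.3, 36.6, 17.2, 35.5 and 27.3 cpm in RBP4 and 33.6, 26.2, 15.5, 30.3 and 32.9 cpm in VGAT, below SNF in 5 of 5 pools of each line and without overlap. The log2 fold changes were -1.22 ± 0.23 (SE, edgeR adjusted p = 0.00116) and -1.15 ± 0.20 (SE, edgeR adjusted p = 0.000120). The rise into SNF and the fall to ST were each called in 5 of 5 fits without 1 pool in each line.

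TRAP set the lines apart for Htr2c in the opposite sense to Htr1f. RBP4 TRAP had 24.1, 15.6, 21.2, 15.3 and 22.2 cpm, below every RBP4 WCH library, and VGAT TRAP 35.8, 24.7, 32.2, 28.4 and 29.0 cpm, overlapping VGAT WCH. The log2 fold change against WCH was -0.80 ± 0.23 (SE, edgeR adjusted p = 0.00804) in RBP4 and 0.15 (interval -0.25 to 0.56) in VGAT, and these differed by -0.95 ± 0.27 (SE, edgeR adjusted p = 0.0145). Between the TRAP groups Htr2c was lower in RBP4, with a log2 fold change of -0.61 (edgeR adjusted p = 0.0156), with no overlap. These calls did not hold in every fit that left out 1 pool. The change in RBP4 passed in 3 of 5, not without replicate 2 or 4, with an adjusted p of up to 0.0573. The difference of the changes and that between the TRAP groups each passed in 8 of 10, not without RBP4 replicate 4 or VGAT replicate 1, with adjusted p of up to 0.0552 and 0.0563. RBP4 ST was above RBP4 TRAP by 0.60 ± 0.23 (SE, edgeR adjusted p = 0.0295), which passed in 2 of 5 fits without 1 pool and did not pass without RBP4 ST replicate 4 alone (0.53, edgeR adjusted p = 0.0706). The 5 choroid plexus markers, led by Ttr, moved with the fractions too. They summed to 463 to 1273 cpm in RBP4 WCH, 949 to 2368 in RBP4 SNF, 275 to 1357 in RBP4 ST and 27.3 to 166 in RBP4 TRAP. VGAT WCH, SNF and ST had 406 to 854, 935 to 2495 and 544 to 1162 cpm. In VGAT TRAP the sum was 614 cpm in replicate 3 and at most 69.8 cpm in the others, while Htr2c in replicate 3 was 32.2 cpm, within the range of the others. Their part in the levels of Htr2c was not tested.

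Htr2a (chromosome 14, 74640840 to 74709494, plus strand), the receptor through which classical psychedelics act, varied widely between pools. RBP4 WCH had 2.16, 11.0, 7.90, 3.28 and 8.02 cpm and VGAT WCH 2.83, 4.79, 8.05, 6.11 and 7.94 cpm. In TRAP it was 8.17, 6.29, 4.57, 4.28 and 3.81 cpm in RBP4 and 2.36, 2.97, 2.55, 2.75 and 3.31 cpm in VGAT. The lowest RBP4 TRAP library was above the highest of VGAT TRAP, but the log2 fold change of 0.95 ± 0.38 (SE, edgeR adjusted p = 0.0615) missed the threshold. It passed with TMM factors (1.02, edgeR adjusted p = 0.0417), with DESeq2 (0.99, adjusted p = 0.0369) and without RBP4 TRAP replicate 5 alone (1.06, edgeR adjusted p = 0.0464). The fold change of VGAT TRAP over WCH on the log2 scale was -1.09 ± 0.29 (SE, edgeR adjusted p = 0.00249), lower in 5 of 5 pools. From SNF to ST, Htr2a fell in every pool of both lines. SNF had 11.7, 10.8, 1.96, 11.0 and 6.20 cpm in RBP4 and 9.45, 10.3, 3.91, 7.61 and 8.06 cpm in VGAT, with replicate 3 lowest in both. ST had 3.34, 4.85, 0.969, 2.96 and 1.69 cpm in RBP4 and 3.38, 2.38, 1.19, 2.98 and 2.89 cpm in VGAT, again lowest in replicate 3. The log2 fold changes were -1.59 ± 0.46 (SE, edgeR adjusted p = 0.0287) and -1.61 ± 0.29 (SE, edgeR adjusted p = 0.000216). The first passed in 2 of 5 fits without 1 pool, and it was -1.61 without RBP4 ST replicate 4 alone and then did not pass (edgeR adjusted p = 0.0558).

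Of the Gs-coupled receptors, Htr7 (chromosome 19, 35958734 to 36057507, minus strand) varied least among the 8 genes by the same ratio, with group means between 7.76 and 12.6 cpm. RBP4 TRAP was lowest, with 6.62, 9.56, 5.24, 11.3 and 6.11 cpm, below RBP4 WCH, at 17.9, 13.5, 8.03, 13.2 and 8.88 cpm, in 5 of 5 pools. VGAT TRAP, with 12.2, 9.09, 8.86, 10.2 and 7.97 cpm, was below VGAT WCH, with 13.2, 10.7, 10.3, 10.6 and 11.3 cpm, in 5 of 5 pools too, with a log2 fold change of -0.22 that did not pass (edgeR adjusted p = 0.284). The RBP4 log2 fold change of -0.66 (SE 0.25, edgeR adjusted p = 0.0379) was the only call for Htr7. It passed in 3 of 5 fits without 1 pool, not without replicate 1 or 2, and did not pass without RBP4 TRAP replicate 5 alone (edgeR adjusted p = 0.0706) or with no filter on low counts (edgeR adjusted p = 0.0570). From SNF to ST, Htr7 changed by -0.18 with an interval of -0.54 to 0.19, and in RBP4 by -0.04 with an interval of -0.55 to 0.47. Its ST libraries held 11.4, 9.46, 12.2, 11.8 and 12.7 cpm in RBP4 and 13.5, 12.8, 9.15, 11.7 and 8.52 cpm in VGAT. Against RBP4 TRAP, RBP4 ST was higher by 0.57 (edgeR adjusted p = 0.0566), which passed with the pool as a block (0.63, edgeR adjusted p = 0.0154) and without RBP4 SNF replicate 3 in the fit (edgeR adjusted p = 0.0442).

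Htr4 (chromosome 18, 62324204 to 62496577, plus strand) was the lowest of the 8 genes per kb in each group and had 0.388 to 4.82 cpm, or 6 to 77 counts per library. VGAT SNF had 4.82, 4.49, 1.01, 3.45 and 4.56 cpm and VGAT ST 1.83, 2.15, 1.10, 1.86 and 2.24 cpm, lower in ST in 4 of 5 pools. The exception was again replicate 3. That fall was the only call for Htr4, with a log2 fold change of -1.0 ± 0.32 (SE, edgeR adjusted p = 0.0217), and it passed in 1 of 5 fits without 1 pool. In RBP4 the same change was -0.67 with an interval of -1.49 to 0.15. With the pool as a block, VGAT TRAP was lower than WCH, with a log2 fold change of -0.75 (edgeR adjusted p = 0.0498), against an adjusted p of 0.0527 without it. Without VGAT SNF replicate 3, the rise from VGAT WCH to SNF was 0.77 and passed (edgeR adjusted p = 0.0113), against 0.55 (edgeR adjusted p = 0.128) with all libraries, and the fall from WCH to TRAP passed as well (edgeR adjusted p = 0.0148). The other groups held 1.79 to 3.47 (VGAT WCH), 1.19 to 2.17 (VGAT TRAP), 2.03 to 3.67 (RBP4 WCH), 0.774 to 2.18 (RBP4 TRAP), 2.15 to 4.81 (RBP4 SNF) and 0.388 to 3.26 cpm (RBP4 ST).

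**Figure D3:**
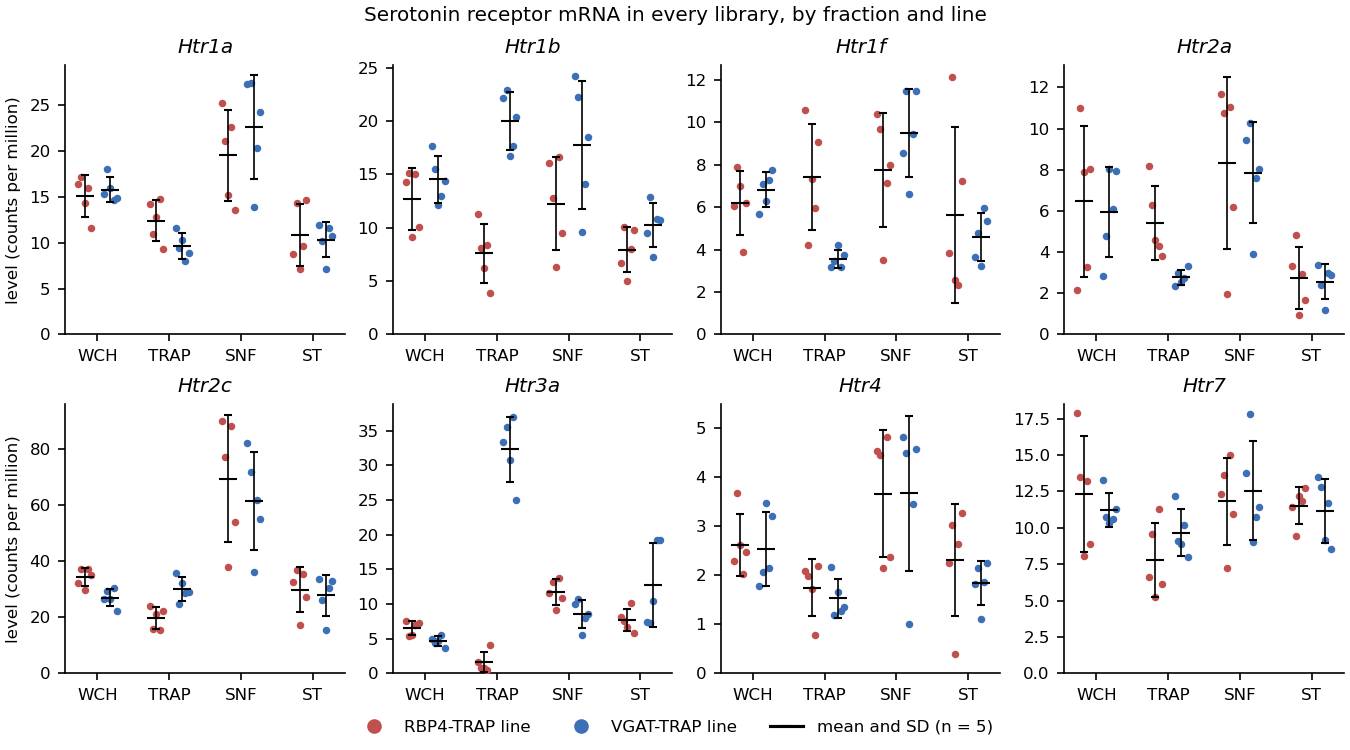
Each panel gives 1 gene, with cpm on the y axis (from 0) and the 4 fractions on the x axis. Points are libraries of the RBP4-TRAP (red) and VGAT-TRAP (blue) lines, with the mean and SD in black. Htr3a and Htr1b are separated by line in TRAP, and Htr2c is highest in SNF of both lines.

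Set side by side, the 8 genes divided differently in the TRAP libraries of both lines. In the RBP4 line, 4 were called between TRAP and WCH, all lower in TRAP (Htr1b, Htr2c, Htr3a and Htr7), where 31.5% of all 17043 genes tested were lower and 8.37% higher. In the VGAT line, 3 were lower (Htr1a, Htr1f and Htr2a) and 2 higher (Htr1b and Htr3a), against 41.8% and 21.0% of 16990 genes, so that the VGAT counts are near the shares of all genes. The median log2 fold change of the 8 genes was -0.62 in RBP4 and -0.47 in VGAT, beside -0.34 and -0.31 for all genes. Since that median lay below 0 with the scaling used, the changes were also taken relative to it. Htr3a then changed by -1.72 in RBP4 and 3.11 in VGAT, and Htr1b by -0.40 and 0.77. The other RBP4 calls were -0.46 for Htr2c and -0.32 for Htr7, and the other VGAT calls -0.40 for Htr1a, -0.63 for Htr1f and -0.78 for Htr2a. With TMM factors 1 of the 4 RBP4 calls passed (Htr3a) and with DESeq2 also 1, while 5 VGAT genes passed with each. Without RBP4 TRAP replicate 5 alone, 2 of the 4 passed (Htr2c and Htr3a).

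Between SNF and WCH, each receptor gene that was called was higher in SNF. In RBP4 these were 2 of 8 (Htr2c and Htr3a), where 13.4% of all genes were higher and 36.1% lower. In VGAT they were 4 (Htr1a, Htr1f, Htr2c and Htr3a), where 19.3% were higher and 45.2% lower. The median of the 8 was 0.37 in RBP4 and 0.50 in VGAT, beside -0.50 and -0.52 for all genes. Relative to these medians, all 8 genes had positive values in both lines, from 0.44 to 1.52 in RBP4 and from 0.68 to 1.70 in VGAT. The count depended on the scaling. TMM factors, under which the medians of all genes were -0.17 and -0.17, called 3 in RBP4 and 8 in VGAT, and DESeq2 called 4 and 8. The library of replicate 3 was the lowest in SNF for 7 of the 8 genes in RBP4 and for 8 of 8 in VGAT. Without it, 2 genes passed in RBP4 and 6 in VGAT. Astrocyte markers were also higher in this fraction. They summed to 2682 to 5296 cpm in RBP4 WCH and to 8914 to 24784 cpm in RBP4 SNF. VGAT WCH had 2200.1 to 4434 cpm of them and VGAT SNF 8522 to 24494 cpm, and their part in these results was not tested.

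Between ST and SNF, each receptor gene that was called was lower in ST, the fraction captured with tagged ribosomes. In VGAT these were 6 of 8 (Htr1a, Htr1b, Htr1f, Htr2a, Htr2c and Htr4), where 11.2% of all genes were lower and 16.3% higher. In RBP4 they were 3 (Htr1a, Htr2a and Htr2c), where 5.46% were lower and 5.64% higher. The median of the 8 was -1.03 in VGAT and -0.65 in RBP4, beside 0.08 and -0.05 for all genes. GABAergic markers summed to 249 to 657 cpm in VGAT SNF and 258 to 706 cpm in VGAT ST. Layer 5 markers summed to 730 to 1100 cpm in RBP4 SNF and 653 to 1202 cpm in RBP4 ST. Oligodendrocyte markers were higher in ST, at 24513 to 42633 cpm against 13857 to 16204 cpm in VGAT SNF. RBP4 ST had 27360 to 37404 cpm of them and RBP4 SNF 11410 to 17221 cpm. Astrocyte sums overlapped. The part of these cells in the falls was not tested. The counts of called receptor genes stayed at 6 and 3 with TMM factors, DESeq2, no filter on low counts and without SNF replicate 3. Over the fits that left out 1 pool they were 4 to 6 in VGAT, lowest without replicate 1, and 1 to 3 in RBP4, lowest without replicate 1 or 4, and without RBP4 ST replicate 4 alone 2 passed in RBP4 (Htr1a and Htr2c). The difference of this change between the lines was called for 0 of the 8 genes in edgeR and 0 in DESeq2, where 0% of 16898 genes were in edgeR. By an unadjusted edgeR p under 0.05 it was called for 1, Htr3a (-1.17, interval -2.04 to -0.31), and for 2.66% of all genes. Between ST and TRAP, 2 genes were called in RBP4, both higher in ST (Htr2c and Htr3a), a count near the shares of 26.0% higher and 29.1% lower among all genes. With the pool as a block 4 passed there, Htr7 higher and Htr2a lower (-1.06, edgeR adjusted p = 0.0395) in addition. The same 4 passed without RBP4 SNF replicate 3 in the fit, while 1 passed without RBP4 ST replicate 4 (Htr3a). In VGAT 2 were called, both lower in ST (Htr1b and Htr3a), where 34.0% of all genes were lower and 37.5% higher.

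**Figure D4:**
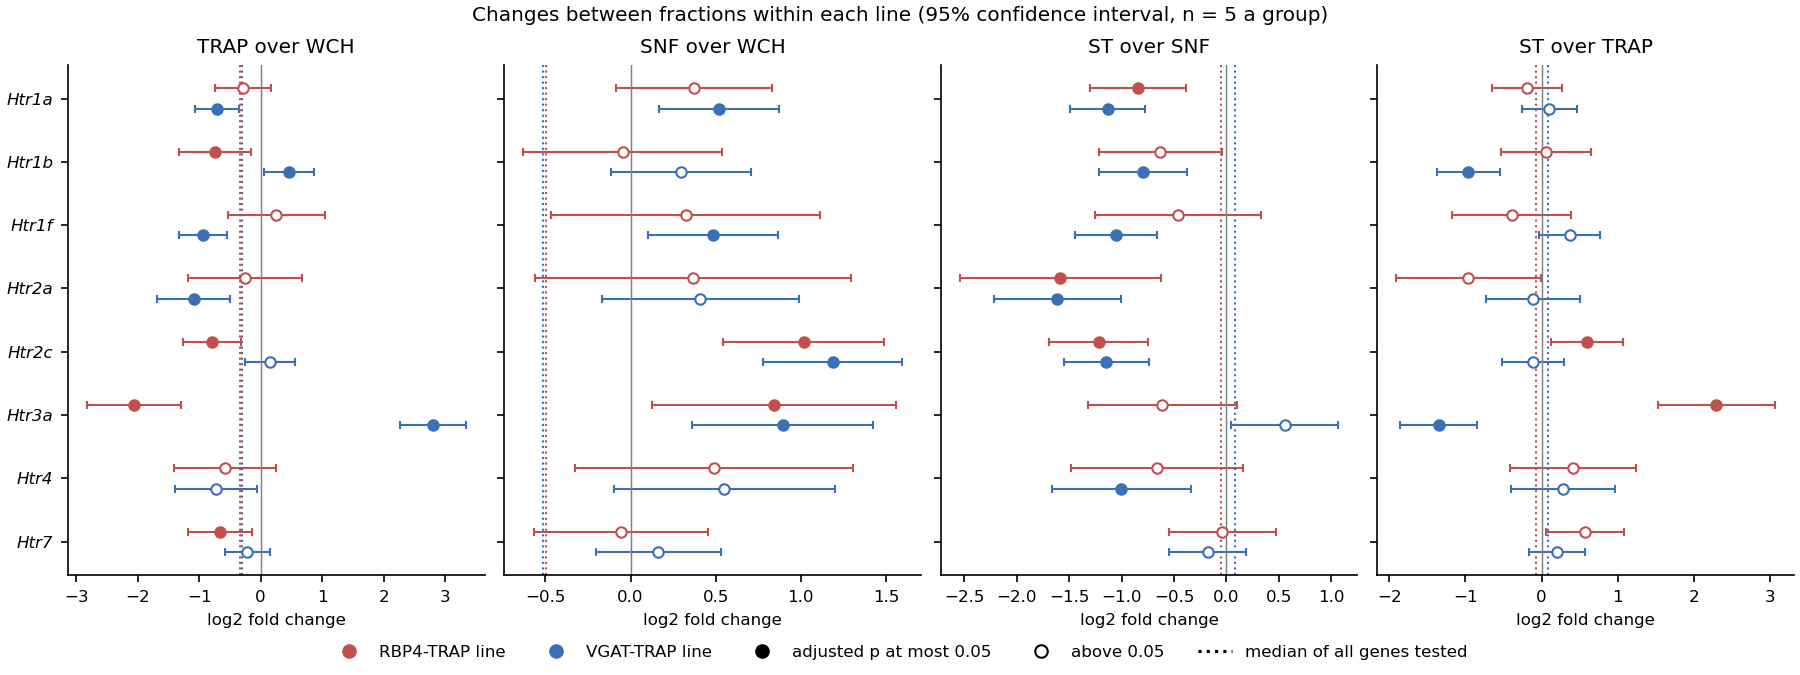
Points are log2 fold changes between fractions for each gene in the RBP4 (red) and VGAT (blue) lines, with 95% confidence intervals, filled where the adjusted p is at most 0.05. Dotted lines mark the median of all genes tested. Htr3a lies on opposite sides of 0 in both lines for TRAP over WCH (-2.06 and 2.80) and for ST over TRAP (2.29 and -1.35).

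Between the lines, 4 of the 8 receptor genes were called in TRAP and 0 in the homogenate or in ST. In WCH 0 of 8 passed in edgeR and 0 in DESeq2, and 0.0118% of 16898 genes did in edgeR. By an unadjusted edgeR p under 0.05, 0 of 8 and 2.52% of all genes were called. The 95% confidence intervals of the 8 genes in WCH ran at most from -0.78 to 1.17 on the log2 scale. In TRAP 3 were lower in RBP4 (Htr1b, Htr2c and Htr3a) and 1 higher (Htr1f), where 15.1% of all genes were lower and 12.9% higher. In ST 0 passed in edgeR and 0 in DESeq2, where 0.325% of all genes did in edgeR, and 1 of 8 (Htr3a) had an unadjusted p under 0.05, where 11.5% of all genes had. The intervals in ST ran at most from -1.39 (Htr3a) to 1.05 (Htr4). For Htr1b the ST interval was -0.83 to 0.09, against -1.85 to -0.93 in TRAP, and for Htr2c it was -0.28 to 0.49, against -1.0 to -0.22 in TRAP. The direct test of ST less TRAP between lines called 2 genes, both with a higher value in RBP4 (Htr1b and Htr3a), where 5.02% of all genes were higher and 5.79% lower. For Htr2c it gave 0.71 (edgeR adjusted p = 0.0870), which passed with TMM factors (edgeR adjusted p = 0.0363). TRAP less WCH called 3, each with a lower value in RBP4 (Htr1b, Htr2c and Htr3a), where 6.97% were lower and 5.63% higher. Both tests share the TRAP libraries.

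**Figure D5:**
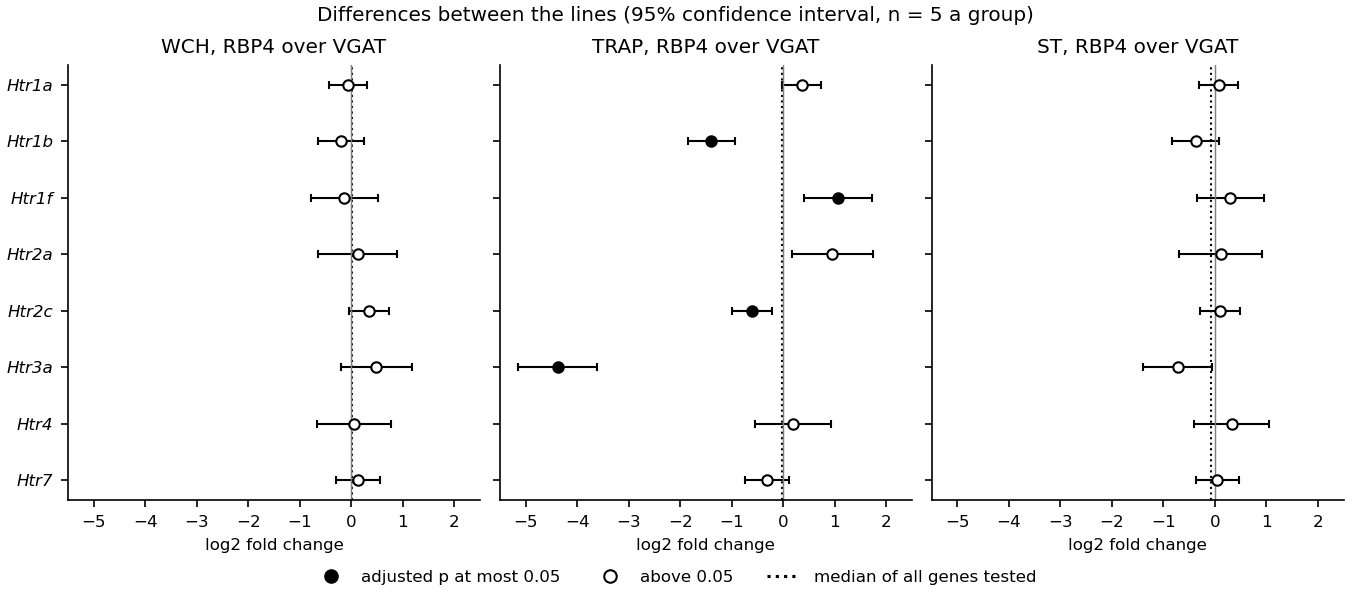
Points are log2 fold changes of RBP4 over VGAT for each gene in WCH, TRAP and ST, with 95% confidence intervals, filled where the adjusted p is at most 0.05, and dotted lines at the median of all genes. In TRAP 4 genes are filled, from -4.37 (Htr3a) to 1.06 (Htr1f), and in WCH and ST none.

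The study's rule for candidates of local translation was applied as an increase from WCH to SNF and again from SNF to ST, with an unadjusted edgeR p under 0.05 at each step. This threshold was chosen here and is looser than the adjusted p used for all other calls. The study states an FDR-adjusted p of at most 0.05, except where noted. Applied in this way, the rule gave 71 genes in RBP4 and 220 in VGAT. These are fewer than the study reported for each line, so its own candidate lists were not reproduced. By this rule 1 of the 8 genes was a candidate in VGAT (Htr3a), as were 1.29% of all genes, and 0 in RBP4, where 0.417% were. For Htr3a in VGAT the second step rested on 0.56 (SE 0.25, edgeR adjusted p = 0.102), with ST above SNF in 3 of 5 pools. With an adjusted p of at most 0.05 the second step was passed by 0 of the 8 genes in either line. Somatic candidates, for which TRAP exceeded WCH and SNF fell short of it, held 0 of the 8 in either line, beside 5.94% of genes in RBP4 and 13.2% in VGAT.

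The 6 other serotonin receptor genes in the files were measured in the same way. Htr1d, a Gi/o-coupled relative of Htr1b, was 11.3, 11.6, 9.57, 9.25 and 10.3 cpm in VGAT TRAP and 0.358, 0.297, 0.778, 1.59 and 0.392 cpm in RBP4 TRAP, with no overlap. Its log2 fold change, RBP4 over VGAT, was -3.89 (edgeR adjusted p = 3.38e-09), and against WCH it was 1.91 (edgeR adjusted p = 4.88e-06) in VGAT and -2.22 (edgeR adjusted p = 0.000730) in RBP4. Htr5b, which encodes a receptor in rodents, was higher in RBP4 TRAP, at 4.71, 3.71, 5.50, 2.96 and 6.11 cpm against 1.28, 0.654, 1.08, 0.370 and 1.51 cpm in VGAT TRAP, a change of 2.22 (edgeR adjusted p = 0.000113). Htr5a and Htr5b rose from WCH to SNF in both lines, Htr5a by 0.69 and 0.88 and Htr5b by 1.21 and 1.47 (RBP4 and VGAT, largest edgeR adjusted p = 0.0167). Htr5a fell from SNF to ST in both, by 0.87 and 1.12. Htr6 was at most 1.95 cpm in any library, Htr2b at most 0.996 cpm and Htr3b, the partner subunit of Htr3a, at most 0.506 cpm, and Htr3b was below the limit for testing.

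Genes for serotonin synthesis, transport and breakdown were tested as a list of 11, of which 9 passed the limit within the lines. In TRAP against WCH, 0 were higher and 2 lower in RBP4, and 0 were higher and 5 lower in VGAT, with list medians of -0.41 and -0.64. Of all genes, 8.37% were higher and 31.5% lower in RBP4 and 21.0% and 41.8% in VGAT, and the list counts stand beside these shares without a test. Maob, a monoamine oxidase, fell in both, by 1.32 and 2.08. In ST against TRAP, 5 were higher and 0 lower in RBP4, and 7 were higher and 0 lower in VGAT. Of all genes, 26.0% were higher in RBP4 and 37.5% in VGAT. Among the higher ones was Ddc, the decarboxylase that makes serotonin and dopamine, up by 3.40 (edgeR adjusted p = 2.86e-07) and 2.67 (edgeR adjusted p = 4.12e-09). In SNF against WCH 3 were higher and 0 lower in RBP4, and 3 were higher and 0 lower in VGAT. In ST against SNF 1 was higher and 1 lower in RBP4, and 3 were higher and 1 lower in VGAT. The shares of all genes, higher and lower, were 13.4% and 36.1% (RBP4) and 19.3% and 45.2% (VGAT) in SNF against WCH, and 5.64% and 5.46% (RBP4) and 16.3% and 11.2% (VGAT) in ST against SNF. Of the markers of serotonergic neurons themselves, the serotonin transporter Slc6a4 and Fev averaged at most 0.180 cpm in any group. Tph2, which makes the precursor of serotonin, was 2.10 to 12.6 cpm over the 40 libraries.

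Downstream of the receptors, 9 genes for G protein subunits were tested. In TRAP against WCH 0 were higher and 3 lower in RBP4, and 2 were higher and 4 lower in VGAT. In SNF against WCH 1 was higher and 5 lower in RBP4, and 1 was higher and 7 lower in VGAT. From SNF to ST 1 was higher and 0 lower in RBP4, and 1 was higher and 0 lower in VGAT, and from TRAP to ST 2 were higher and 4 lower in RBP4, and 3 were higher and 4 lower in VGAT. These counts stand beside the shares of all genes given for the metabolic list, and in TRAP to ST also 29.1% lower in RBP4 and 34.0% in VGAT. Gnal, the stimulatory subunit of striatal neurons, separated the lines in TRAP, with 87.2 ± 14.3 cpm in RBP4 and 446 ± 67.6 cpm in VGAT, a log2 fold change of -2.35 (edgeR adjusted p = 3.14e-12). The effectors, such as adenylyl cyclases, phospholipases and channels, made a list of 20 genes. In TRAP against WCH 1 was higher and 10 lower in RBP4, and 5 were higher and 11 lower in VGAT. In SNF against WCH 7 were higher and 8 lower in RBP4, and 9 were higher and 8 lower in VGAT. From SNF to ST 0 were higher and 4 lower in RBP4, and 4 were higher and 5 lower in VGAT, and from TRAP to ST 7 were higher and 3 lower in RBP4, and 11 were higher and 7 lower in VGAT. In TRAP against WCH the effectors' lower counts, 10 and 11 of 20, stand beside 31.5% and 41.8% of all genes, and their higher counts beside 8.37% and 21.0%. In SNF against WCH their higher counts stand beside 13.4% and 19.3% of all genes and their lower counts beside 36.1% and 45.2%. From SNF to ST the shares of all genes, higher and lower, were 5.64% and 5.46% (RBP4) and 16.3% and 11.2% (VGAT). From TRAP to ST they were 26.0% and 29.1% (RBP4) and 37.5% and 34.0% (VGAT). Kcnj3, a subunit of the potassium channel that Gi/o-coupled receptors open, fell from SNF to ST, with log2 fold changes of -1.26 (edgeR adjusted p = 0.000287) in RBP4 and -1.52 (edgeR adjusted p = 5.45e-08) in VGAT. Ppp1r1b, a phosphatase inhibitor of striatal projection neurons, was lower in RBP4 TRAP than in VGAT TRAP, with a log2 fold change of -4.01 (edgeR adjusted p = 2.18e-10), moving with the striatal markers given above, whose part was not tested. The median log2 fold changes of the effectors were -0.60 and -0.42 in TRAP against WCH and -0.15 and -0.04 in ST against SNF.

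A list of 12 genes held proteins that bind or modify the receptors. In TRAP against WCH 2 were higher and 3 lower in RBP4, and 3 were higher and 2 lower in VGAT. In SNF against WCH 1 was higher and 7 lower in RBP4, and 1 was higher and 9 lower in VGAT. From SNF to ST 4 were higher and 1 lower in RBP4, and 7 were higher and 1 lower in VGAT, and from TRAP to ST 5 were higher and 3 lower in RBP4, and 6 were higher and 6 lower in VGAT. Of all genes, 5.64% were higher from SNF to ST in RBP4 and 16.3% in VGAT, and 36.1% and 45.2% were lower from WCH to SNF. In TRAP against WCH 8.37% and 21.0% were higher and 31.5% and 41.8% lower. From TRAP to ST 26.0% and 37.5% were higher and 29.1% and 34.0% lower. From SNF to ST 5.46% and 11.2% were lower, and from WCH to SNF 13.4% and 19.3% were higher. Adarb1, a deaminase that edits the mRNA of Htr2c, rose from SNF to ST, where Htr2c fell, by 1.06 (edgeR adjusted p = 0.000130) in RBP4 and 1.33 (edgeR adjusted p = 1.50e-08) in VGAT. Ric3, a chaperone of Cys-loop receptor channels such as that of Htr3a, rose from WCH to SNF by 0.97 (edgeR adjusted p = 0.000394) and 1.08 (edgeR adjusted p = 5.75e-07). S100a10, which binds Htr1b and Htr4 proteins, rose in RBP4 TRAP against WCH by 1.37 (edgeR adjusted p = 0.000800). Between the TRAP groups 1 of the 12 was higher and 5 lower in RBP4, 2 and 4 of the effectors, 3 and 1 of the G protein subunits and 1 and 1 of the metabolic genes, where 12.9% of all genes were higher and 15.1% lower.

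Across the 40 libraries, which share 10 pools and 8 groups, Pearson's r of the log2 levels was highest among Htr1a, Htr1f, Htr2a, Htr2c and Htr4. It was 0.76 between Htr1a and Htr4, 0.75 between Htr2c and Htr4, 0.73 between Htr1a and Htr1f, 0.73 between Htr1a and Htr2c and 0.73 between Htr1f and Htr2a, and lowest within these 5 between Htr1f and Htr2c (0.46). Htr3a had r between -0.30 (Htr1f) and 0.41 (Htr2c) with these 5 and was closest among the 8 to Htr1b (0.49). Of the 14017 genes whose mean reached 1 cpm, the 2 most like Htr3a were Tac2 (r = 0.96) and Vip (r = 0.94), both neuropeptide precursors. For Htr1b they were Neto1 (r = 0.91) and Pld5 (r = 0.86), for Htr1a Lrrc4c (r = 0.91) and Abhd13 (r = 0.91) and for Htr1f Trpc1 (r = 0.87) and Epha7 (r = 0.86). Htr2a was nearest to Gabrb2 (r = 0.89) and Sstr4 (r = 0.87). Nearest to Htr4 were Slc19a2 (r = 0.83) and Slc11a2 (r = 0.82), and to Htr7 Nrp2 (r = 0.66) and Kcnd3 (r = 0.65). These values are descriptions over libraries that share depth, fraction and line.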

How the data were processed

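Per the labels and the methods, single 50-base reads of 40 libraries, made with a kit that does not mark strand, were aligned by the authors with STAR 2.0.4b to an Ensembl assembly, and uniquely aligned unambiguous reads were counted per gene with Subread featureCounts 1.4.5. The deposited files gave these counts for 41388 genes, with their CPM and RPKM, which the authors derived from the counts and the exon lengths and which were not used further. Gene names were taken from GENCODE M21 (40340 genes matched), whose build is GRCm38. Here 37 mitochondrial and 353 rRNA and tRNA genes were left out, and cpm (counts scaled to 1000000 counts a library) were computed from the remaining 8950847 to 21976631 counts a library. Leaving these genes out changes each level by the share they took, and a count of 1 sets the precision given in the text.

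A gene was tested where 3 or more libraries reached 0.5 cpm, with the quasi-likelihood test of edgeR 4.0.16 in R 4.3.3, and the model held the group alone, without a further scaling factor. The fits held 20 libraries within a line, 30 between the lines (WCH, TRAP and ST) and 40 for the differences of ST less SNF, and p-values were two-sided and adjusted over all genes tested. The test was checked on simulated counts drawn without an effect of the pool. That check does not cover fractions that share a pool. TMM factors, DESeq2 1.42.0, no filter on low counts, the replicate number or the pool as a block and fits without 1 pool or library were tried as alternatives. Within a line, libraries of equal number came from the same pool, so the block is valid there. Their deviations from the group means correlated by 0.20 (RBP4) and 0.23 (VGAT) on average. Between pools the averages were -0.05 and -0.06, which largely follow from the centring on group means and are no separate evidence. Between the lines the labels do not pair equal numbers, and for direct comparisons of the lines the block was an alternative by number only. For the differences of changes between the lines, the block was the pool within each line.

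The 8 genes and all lists were chosen with earlier results of these data known. All 8 are named in each comparison. Of the other lists, at most the 3 called genes with the smallest p were named, besides Slc6a4, Fev and Tph2, which were chosen as markers. The 2 genes most like each receptor gene had the highest Pearson correlation of log2(cpm + 0.5). Those for Htr2c are not reported here. Replicates are pools of animals, and p-values measure the spread between pools. Python 3.11.15 was used for tables and figures.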

Additional observations from a re-analysis of the deposited data

Results flagged for a closer look

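For 5 changes between fractions, the lines differed by a direct test of the difference over the libraries of both lines (edgeR quasi-likelihood test, adjusted over all genes). All 5 rest on the TRAP libraries. TRAP less WCH, RBP4 less VGAT, was -4.86 on the log2 scale for Htr3a, -1.20 for Htr1b and -0.95 for Htr2c, and RBP4 TRAP was below RBP4 WCH in 5 of 5 pools for each of the 3. The value for Htr2c passed in 8 of 10 fits that each left out 1 pool, with adjusted p of up to 0.0552. ST less TRAP was 3.65 for Htr3a and 1.02 for Htr1b. For Htr3a the value was past the threshold in each fit that left out 1 pool, and for Htr1b the second value passed in 2 of 10 such fits, with adjusted p of 0.0116 to 0.0922. A search for single libraries that stand apart from the other 4 of their group found 0 among 64 sets, where chance alone gives about 1 in 20. Each set was 1 gene in 1 group, so the search cannot detect a library that is shifted in many genes at once. SNF replicate 3 was the lowest of its group for 7 of the 8 genes in RBP4 and 8 of 8 in VGAT.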

How the results depend on the processing

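The scaling was the choice that moved most. Relative to plain library sizes, TMM factors and DESeq2 shifted the median of all genes, and the number of receptor genes called fell from 4 to 1 with each in RBP4 TRAP against WCH. In VGAT SNF against WCH it rose from 4 to 8 with each, and in RBP4 SNF against WCH from 2 to 4 with DESeq2. With no filter on low counts it was 2 in RBP4 TRAP against WCH and 1 in RBP4 SNF against WCH. With an unadjusted p, 1 gene was called in ST between the lines and 1 in the difference of ST less SNF, where the adjusted p called 0. With the replicate block (number or pool), 4 instead of 2 genes were called in RBP4 ST against TRAP, Htr4 was gained in VGAT TRAP against WCH, and no other call changed. Leaving out each pool, or 1 of 4 single libraries chosen after seeing the data (RBP4 ST replicate 4, RBP4 TRAP replicate 5 and SNF replicate 3 of each line), gave counts of 1 to 4 for RBP4 TRAP against WCH, 1 to 2 for RBP4 SNF against WCH, 1 to 3 for RBP4 ST against SNF, 1 to 4 for RBP4 ST against TRAP, 4 to 6 for VGAT TRAP against WCH, 2 to 7 for VGAT SNF against WCH, 4 to 6 for VGAT ST against SNF, 2 to 3 for VGAT ST against TRAP, 3 to 5 for TRAP between the lines, 1 to 3 for ST less TRAP between the lines and 2 to 4 for TRAP less WCH between the lines. Of 37 called values, 34 passed with TMM factors, 34 with DESeq2 and 32 with no filter, and no called value changed its sign under any of these choices. Values that were not called and changed their sign with TMM factors were Htr1a in RBP4 TRAP against WCH (0.0098), Htr2a in RBP4 TRAP against WCH (0.032), Htr1b in RBP4 SNF against WCH (0.29), Htr7 in RBP4 SNF against WCH (0.29), Htr7 in RBP4 ST against SNF (0.0046), Htr7 in VGAT TRAP against WCH (0.032), Htr2c in the difference between the lines of ST less SNF (0.037). With DESeq2 they were Htr1a in RBP4 TRAP against WCH (0.0070), Htr2a in RBP4 TRAP against WCH (0.0094), Htr1b in RBP4 SNF against WCH (0.40), Htr7 in RBP4 SNF against WCH (0.40), Htr7 in VGAT TRAP against WCH (0.011), Htr2c in the difference between the lines of ST less SNF (0.065), and with the replicate block Htr7 in RBP4 ST against SNF (0.024). Over the fits without a pool or library, the following crossed 0, with the lowest and highest log2 value: Htr1b in RBP4 SNF against WCH (-0.12 to 0.11), Htr2a in RBP4 SNF against WCH (-0.0058 to 0.70), Htr7 in RBP4 SNF against WCH (-0.13 to 0.10), Htr7 in RBP4 ST against SNF (-0.19 to 0.080), Htr1b in RBP4 ST against TRAP (-0.19 to 0.30), Htr7 in VGAT SNF against WCH (-0.012 to 0.26), Htr1a in VGAT ST against TRAP (-0.0017 to 0.23), Htr2a in VGAT ST against TRAP (-0.29 to 0.026), Htr2c in VGAT ST against TRAP (-0.19 to 0.061), Htr1a in WCH between the lines (-0.12 to 0.017), Htr2a in WCH between the lines (-0.15 to 0.35), Htr4 in WCH between the lines (-0.11 to 0.19), Htr7 in WCH between the lines (-0.044 to 0.25), Htr1a in ST between the lines (-0.051 to 0.19), Htr1f in ST between the lines (-0.20 to 0.50), Htr2a in ST between the lines (-0.19 to 0.32), Htr2c in ST between the lines (-0.045 to 0.25), Htr7 in ST between the lines (-0.034 to 0.13), Htr4 in the difference between the lines of ST less TRAP (-0.11 to 0.40), Htr1b in the difference between the lines of ST less SNF (-0.0022 to 0.33), Htr2a in the difference between the lines of ST less SNF (-0.22 to 0.19), Htr2c in the difference between the lines of ST less SNF (-0.23 to 0.068), Htr7 in the difference between the lines of ST less SNF (-0.017 to 0.25). The cause was not tested. Depth limits the precision for Htr4, with 6 to 77 counts a library. Between the lines the labels do not pair equal replicate numbers, and deviations from the group means correlated by 0.17 on average for equal and -0.04 for different numbers in WCH, by 0.13 and -0.03 in TRAP and by 0.04 and -0.01 in ST. The values for different numbers largely follow from the centring on group means. Replicate 3 had the highest mitochondrial share of ST in both lines as of SNF (15.8% in RBP4 and 19.0% in VGAT).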
